A study of Mus musculus with 9 samples.

Results

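The genes described here are a set of 10 that are best known from foetal tissue and from cancers, taken with the receptors of the insulin-like growth factors: *Igf2*, *H19*, *Igf2bp1*, *Igf2bp2*, *Igf2bp3*, *Lin28b*, *Hmga1*, *Hmga2*, *Igf1r* and *Igf2r*. They were found by gene symbol among the 50600 genes of the deposited tables, and each matched 1 gene. All 9 libraries were used, 3 in each of 3 groups. The first 2 groups were wildtype (WT) organoids, which are cultures grown in Matrigel from crypts of normal mouse small intestine, labelled C57BL/6 and kept for 24 hr in conditioned medium mixed with an equal volume of concentrated organoid medium (EGF, Noggin, R-spondin1 and B27). The conditioned medium came either from tumoroids (T-cM) or from WT organoids (WT-cM). The third group was tumoroids, grown from tumours of mice labelled Apc1638N/+ of mixed strain and left untreated. These mice carry 1 germline mutant copy of *Apc*, a Wnt pathway inhibitor, were older than the mice that gave the organoids, and their tumoroids were kept without R-spondin1. Genotype, age, medium and, by the labels, strain all differ together between tumoroids and organoids and cannot be told apart. The methods of the study describe all its mice as of mixed background, which the C57BL/6 label does not match.

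The labels of the 6 organoid libraries contradict each other, since the title names T-cM where the treatment field names WT-cM and the reverse. Groups follow the titles and are written T-cM-titled and WT-cM-titled. Every difference between the organoid groups changes sign if the treatment field is right, whereas tumoroids were compared with the mean of both organoid groups, which does not depend on the label. Libraries held 16541635 to 25170966 counts, so that 3 counts correspond to 0.103 to 0.204 CPM (counts scaled to the normalised library total).

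Igf2 is a secreted growth factor of the embryo, transcribed from the paternal chromosome, and H19 is a long non-coding RNA transcribed from the maternal copy of the same imprinted region. IGF2 signals through IGF1R, and IGF2R removes it from the cell surface. The IGF2BP proteins bind mRNAs, *Igf2* mRNA among them, and affect their stability and translation. LIN28B blocks maturation of let-7, a family of microRNAs that rises as tissues mature, and HMGA1 and HMGA2 are small chromatin proteins that bind AT-rich DNA. *Hmga2*, *Lin28b* and the *Igf2bp* genes are textbook let-7 targets.

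Most of the protein-coding genes of the set hold, in their 3′ untranslated regions (UTRs), the complement of the let-7 seed (bases 2 to 8 of the microRNA). In the RefSeq mouse sequences (GRCm38.p6), 9 mature microRNAs of the let-7 and miR-98 family shared 1 seed, shown here in capitals for a pair of them with the 5′ product of *Mir675*, which lies inside *H19* and has another seed.
mmu-let-7a-5p: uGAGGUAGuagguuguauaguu
mmu-miR-98-5p: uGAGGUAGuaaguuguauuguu
mmu-miR-675-5p: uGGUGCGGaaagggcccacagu

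The complement of the let-7 seed, CTACCTC, was searched on the transcribed strand of the longest annotated 3′ UTR of each protein-coding gene (Gencode mouse release 21, GRCm38). It was present in 8 of the 9 protein-coding genes of the set, *Igf2* being the exception, against 9.02% of all 21027 genes with a 3′ UTR and 17.7% of the 7444 whose UTR had at least 1500 bases. *Hmga2*, *Igf2bp1* and *Lin28b* held 4 copies each, while 3 or more copies were found in 0.152% of all genes and in 0.416% of those with at least 1500 bases. The UTRs of these 3 genes had 3014 to 6337 bases. The median was 960 over all genes and 2569 over those with at least 1500 bases, so neither share is matched for length. *Igf1r* held 2, and *Igf2bp2*, *Igf2bp3*, *Igf2r* and *Hmga1* held 1. Several members are known as let-7 targets, so an excess over all genes was built into the choice of genes and is no test. The match is a description of letters, and neither binding nor mature let-7 was measured in these polyA-selected libraries. The copies of the members with enough reads to be tested are shown 5′ to 3′ on the mRNA strand, with the match in capitals.
Hmga2 site 1, chr10:120364224-120364246: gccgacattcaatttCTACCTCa
Hmga2 site 2, chr10:120362987-120363009: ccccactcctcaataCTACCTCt
Hmga2 site 3, chr10:120362549-120362571: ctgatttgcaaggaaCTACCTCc
Hmga2 site 4, chr10:120361691-120361713: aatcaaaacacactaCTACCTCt
Igf2bp2, chr16:22059473-22059495: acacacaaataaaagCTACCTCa
Igf2bp3, chr6:49086787-49086809: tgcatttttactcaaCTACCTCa
Igf1r site 1, chr7:68229110-68229132: ttttcaaacatttatCTACCTCa
Igf1r site 2, chr7:68233216-68233238: tttgccagagttcatCTACCTCt
Igf2r, chr17:12683036-12683058: cacctgctccgtgccCTACCTCa
Hmga1, chr17:27563277-27563299: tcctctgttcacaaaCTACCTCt

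*Igf2*, *Igf2bp1* and *Lin28b* stayed under 1 TPM in every culture, whereas *Hmga1*, *Igf2r* and *Igf2bp2* were abundant in all of them. Compared per length, in TPM (transcripts scaled for gene length and library total), *Hmga1* was highest in each group, with means of 163 in the T-cM-titled group, 187 in the WT-cM-titled group and 163 in tumoroids. *Igf2r* and *Igf2bp2* followed in the organoids, at 34.1 and 25.8 TPM in the T-cM-titled group and at 30.8 and 36.1 TPM in the WT-cM-titled group, where their ranges overlapped. *Igf2bp3* (4.17 and 6.73 TPM) and *Hmga2* (3.10 and 4.69 TPM) came next with overlapping ranges, and *Igf1r* and *Igf2* stayed below 1 TPM on average in both organoid groups. In the tumoroids the order differed in that *H19*, at or under 0.09 TPM in every organoid library, had a mean of 44.9 TPM, next after *Igf2r* at 85.6 TPM, although these ranges overlapped. *Igf2bp1* and *Lin28b* were at or under 0.08 TPM in all 9 libraries.

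**Figure D1:**
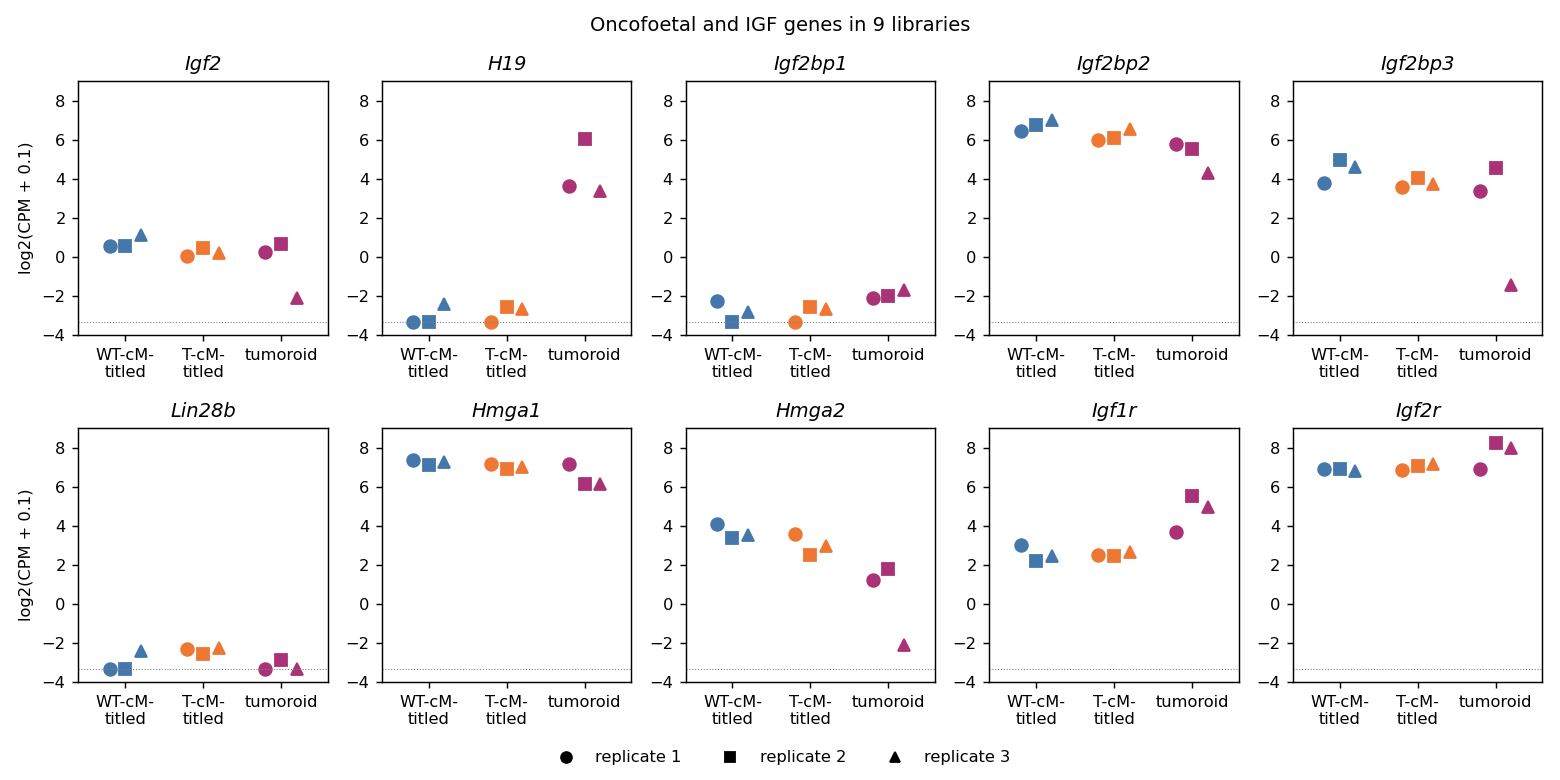
Level of each of the 10 genes in every library, as log2(CPM + 0.1), with 1 point a library, marker shape for the replicate number and columns for the WT-cM-titled organoids, T-cM-titled organoids and tumoroids; the dotted line marks 0 counts. H19 lies at or near that line in all 6 organoid libraries and between 10.3 and 65.1 CPM in the tumoroids, while the third tumoroid lies far below the others in Igf2, Igf2bp3 and Hmga2.

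Of the 10 members, 7 reached 1 TPM in some library and were tested with edgeR's quasi-likelihood test, with p-values adjusted by Benjamini-Hochberg over all 16208 tested genes. A gene is said to be called where the adjusted p was under 0.05 and the log2 difference exceeded 1 in either direction. *Igf2*, *Igf2bp1* and *Lin28b* did not reach that level. *H19* passed it through the tumoroids alone. Between tumoroids and organoids, *H19* and *Igf1r* were called higher, where 21% of all tested genes were, and *Igf2bp2* and *Hmga2* were called lower, where 12.1% were. Between the organoid groups no member was called, where 1.1% of all tested genes were, but *Igf2bp2*, *Igf2bp3* and *Hmga2* passed the adjusted p alone on the lower side in the T-cM-titled organoids, as did 5.05% of all genes. The median log2 difference over the 7 members was −0.21 in the organoid comparison and −0.59 in the tumoroid comparison, beside 0 and 0.165 over all genes.

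*Igf2*, the ligand (ENSMUSG00000048583.16, chr7:142650766-142666816), was detected in every library but never reached 1 TPM. It had 18, 19 and 19 counts in the T-cM-titled group, 25, 23 and 46 in the WT-cM-titled organoids and 24, 40 and 4 in the tumoroids. In CPM these were 0.952, 1.29 and 1.07, then 1.37, 1.40 and 2.04, then 1.09, 1.49 and 0.137, so that each T-cM-titled library was below each WT-cM-titled one, as in 5.28% of the tested genes, and the tumoroids spanned both. With the filter on low values removed, edgeR gave a log2 difference of −0.54 between the organoid groups (adjusted p = 0.36) and of −0.55 between tumoroids and organoids (adjusted p = 0.50), and neither passed. The highest tumoroid was 10.8-fold above the lowest, against 2.14-fold over the 6 organoid libraries. *Igf2os*, an antisense gene that overlaps *Igf2*, had 0 to 3 counts in any library. *Ins2*, the neighbouring insulin gene, had none.

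*H19* (ENSMUSG00000000031.15, chr7:142575529-142578143), the other transcript of this imprinted region, was the member with the largest difference. It had 0, 1 and 1 counts in the T-cM-titled group, 0, 0 and 2 in the WT-cM-titled group and 267, 1750 and 299 in the tumoroids. All 3 tumoroids were far above all 6 organoid libraries, and the second tumoroid was 6.34-fold above the third. The tumoroids averaged 29.1 ± 31.1 CPM (SD, n = 3), and edgeR gave a log2 difference of 9.41 (SE 0.85, adjusted p = 2e-05) over the organoid mean. This was 8.01 without the second tumoroid and 10.78 without WT-cM-titled replicate 3, the extremes when 1 library was left out, and 4.91 on log2(TPM + 1). Because the organoids held 4 counts in all, the ratio is better read with its 95% counting interval, which was 329 (127 to 1210) for the first tumoroid, 1770 (689 to 6490) for the second and 279 (108 to 1030) for the third, and covers counting error only. *H19* is well known from mesenchyme. The markers of fibroblasts (8 genes) summed to 0.27, 0.32 and 1.5 TPM in the 3 tumoroids against 0.24 to 0.58 TPM in the organoids, and those of smooth muscle (4 genes) to 0.21, 0.13 and 0.04 TPM against at most 0.04 TPM. *Col3a1* was at 0 TPM in every library, *Col1a1* was at 0.16, 0.15 and 0.22 TPM in the tumoroids against at most 0.03 TPM in the organoids, and *Myh11* was at 0.09, 0.04 and 0.04 TPM against at most 0.02 TPM. Their part in the *H19* values was not tested, and the epithelial markers summed to 11800 to 13700 TPM. The tumoroids had the same order in *Igf2* as in *H19*, but the one highest in both, with 65.1 CPM of *H19*, held 1.49 CPM of *Igf2*, within the organoid range of 0.952 to 2.04.

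Both receptors were higher in tumoroids by the adjusted p. *Igf1r*, the signalling receptor (ENSMUSG00000005533.10, chr7:67952827-68233668), was at 5.55, 5.43 and 6.26 CPM in the T-cM-titled organoids, 7.91, 4.50 and 5.40 CPM in the WT-cM-titled organoids and 12.8, 45.7 and 31.2 CPM in the tumoroids. No tumoroid overlapped an organoid library, as held on the higher side for 25.6% of tested genes. The tumoroids were 5.11-fold above the organoids in the fit (log2 difference 2.35, SE 0.34, edgeR adjusted p = 0.00032), and the call stood in all 20 alternative analyses. In the organoids the difference was −0.02 (95% interval −0.38 to 0.35, edgeR adjusted p = 1.0).

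*Igf2r*, which clears IGF2 (ENSMUSG00000023830.13, chr17:12682406-12769664), was at 117, 132 and 142 CPM in the T-cM-titled organoids and at 122, 122 and 113 CPM in the WT-cM-titled organoids. The tumoroids were at 121, 302 and 252 CPM, the first of them inside the organoid range. The log2 difference of 0.85 (SE 0.23, edgeR adjusted p = 0.013) passed the adjusted p, as on the higher side 29.6% of tested genes did, but not the fold threshold. Without the second tumoroid it was 0.57 (edgeR adjusted p = 0.074), while without the first it was 1.15 (edgeR adjusted p = 0.00014) and on log2(TPM + 1) 1.25 (limma adjusted p = 0.0038), both past both thresholds. Between the organoid groups *Igf2r* differed by 0.14 (edgeR adjusted p = 0.34). *Airn*, the imprinted antisense RNA that overlaps *Igf2r* (chr17:12741311-12860136), was at 0.507 to 1.48 CPM in the organoids and at 5.39, 7.40 and 8.69 CPM in the tumoroids, and was called higher there (log2 difference 2.89, SE 0.30, edgeR adjusted p = 5e-05). The library kit keeps the strand, but the strand setting of the counting is not given in the sources used here, so reads of the overlapping stretch may not have been told apart.

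**Figure D2:**
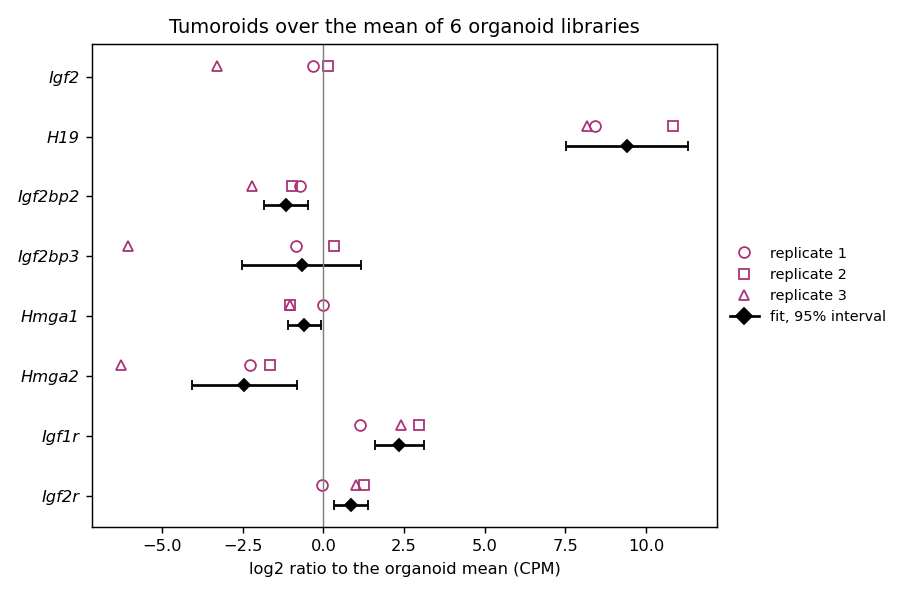
Tumoroids against organoids for 8 members. Open symbols give the log2 ratio of each tumoroid's CPM to the mean CPM of the 6 organoid libraries, and black diamonds with bars give the fitted log2 difference with its 95% interval for the 7 tested genes; H19 and Igf1r lie to the right with all 3 tumoroids, Igf2bp2 and Hmga2 to the left with all 3, and the interval of Igf2bp3 spans 0.

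The mRNA-binding members showed no common gain in tumoroids. *Igf2bp2* (ENSMUSG00000033581.16, chr16:22059009-22163299), the member of this family that adult tissues commonly keep, had 1203, 995 and 1653 counts in the T-cM-titled group, 1568, 1741 and 2890 in the WT-cM-titled group and 1210, 1242 and 571 in the tumoroids. The corresponding CPM were 63.6, 67.5 and 93.2, then 86.2, 106 and 128, then 54.8, 46.2 and 19.6. All 3 tumoroids were below all 6 organoid libraries on this scale, as were 20.2% of tested genes, and *Igf2bp2* was called lower in tumoroids (log2 difference −1.15, SE 0.31, edgeR adjusted p = 0.011). In TPM the first and second tumoroids (25.2 and 24.2) lay among the T-cM-titled organoids (23.0 to 31.1), and the log2(TPM + 1) difference was −0.70 (limma adjusted p = 0.049). Against the T-cM-titled organoids alone the difference was −0.90 (edgeR adjusted p = 0.055), and without the third tumoroid it was −0.84 (edgeR adjusted p = 0.0088), below the fold threshold.

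*Igf2bp2* also differed between the organoid groups. It was lower in the T-cM-titled library of each of the 3 replicate pairs, at 0.738, 0.638 and 0.728 of its partner, although the groups as a whole overlapped. The log2 difference was −0.50 (SE 0.08, edgeR adjusted p = 0.00013, with replicate number as a block), equal to a 1.41-fold change. Replicate numbers came from the titles, and libraries of the same number deviated together.

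*Igf2bp3* (ENSMUSG00000029814.10, chr6:49085223-49214957), which is largely foetal in normal tissue, had 223, 239 and 237 counts in the T-cM-titled organoids and 247, 507 and 544 in the WT-cM-titled organoids. In CPM these were 11.8, 16.2 and 13.4 against 13.6, 30.8 and 24.1, lower in the T-cM-titled library of all 3 pairs with overlapping groups (log2 difference −0.66, SE 0.13, edgeR adjusted p = 0.00068). The first pair differed least, at a ratio of 0.869, and the others were at 0.526 and 0.555. The tumoroids had 222, 620 and 8 counts, or 10.1, 23.1 and 0.275 CPM, an 83.9-fold range that spread from far below every organoid library to the level of the WT-cM-titled ones. Tumoroids and organoids were not distinguished (log2 difference −0.67, 95% interval −2.53 to 1.18, edgeR adjusted p = 0.53), and the difference was −1.82 without the second tumoroid (edgeR adjusted p = 0.14) and −0.11 without the third (edgeR adjusted p = 0.83). With limma voom it was −2.18 (adjusted p = 0.12).

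*Igf2bp1* (ENSMUSG00000013415.9, chr11:95957163-96005940), the third mRNA-binding member, was near the limit of detection. It had 0 to 2 counts in each organoid library, 5 in all 6 together, and 3, 4 and 6 counts in the tumoroids. The ratio of their pooled CPM was 3.62, with a 95% counting interval of 1.21 to 13 that leaves out the spread between cultures. With no filter on low values edgeR gave 1.75 (adjusted p = 0.16) for tumoroids over organoids.

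*Lin28b* (ENSMUSG00000063804.8, chr10:45376620-45486395), the let-7 inhibitor, was not detected beyond stray reads. It had 2, 1 and 2 counts in the T-cM-titled group, 0, 0 and 2 in the WT-cM-titled group and 0, 1 and 0 in the tumoroids, all at or under the 3-count floor of the libraries. Its paralogue *Lin28a* had 1 count in 1 library. At this depth no difference in either gene could be seen, and the pooled ratio of *Lin28b* in tumoroids had a counting interval of 0.00441 to 1.55.

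Of the chromatin genes, *Hmga1* was the most abundant member and *Hmga2* the tested member that fell most in tumoroids. *Hmga2* (ENSMUSG00000056758.14, chr10:120361275-120476469) had 224, 83 and 138 counts in the T-cM-titled group, 312, 168 and 255 in the WT-cM-titled group and 49, 91 and 4 in the tumoroids. In CPM the organoids were at 11.8, 5.63 and 7.78 and at 17.1, 10.2 and 11.3, and the tumoroids at 2.22, 3.38 and 0.137, all below every organoid library. The tumoroids were 5.45-fold lower in the fit (log2 difference −2.45, SE 0.72, edgeR adjusted p = 0.018). The log2 difference was −1.90 without the third tumoroid (edgeR adjusted p = 0.0026) and −3.20 without the second (edgeR adjusted p = 0.011), and it was −3.34 with limma voom and −1.34 on log2(TPM + 1). In all 20 alternatives the adjusted p was between 0.00034 and 0.046. Between the organoid groups *Hmga2* was lower in the T-cM-titled library of each pair, at 0.691, 0.551 and 0.689 of its partner (log2 difference −0.61, SE 0.13, edgeR adjusted p = 0.0027).

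*Hmga1* (ENSMUSG00000046711.15, chr17:27556497-27563674) was abundant everywhere, at 143, 121 and 129 CPM in the T-cM-titled group, 165, 138 and 155 CPM in the WT-cM-titled group and 142, 69.6 and 69.8 CPM in the tumoroids. It was lower in the T-cM-titled library of all 3 pairs, at 0.868, 0.875 and 0.832 of its partner, but missed the threshold (log2 difference −0.21, edgeR adjusted p = 0.093). Tumoroids 2 and 3 were below every organoid library and tumoroid 1 was not, giving −0.59 (95% interval −1.11 to −0.08, edgeR adjusted p = 0.056). Without the first tumoroid the difference was −1.02 (edgeR adjusted p = 0.00033), and on log2(TPM + 1) values with all libraries it was −0.15 (limma adjusted p = 0.54).

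Across the organoid groups, 5 of the 7 tested members had a negative log2 difference and 2 a positive one. *Igf2bp2*, *Igf2bp3*, *Hmga1* and *Hmga2* were lower in the T-cM-titled library of all 3 pairs, 4 of the 7 tested members against 22.3% of all tested genes. Of the members too low to be tested, *Igf2* was lower in all 3 pairs, at 0.693, 0.922 and 0.526 of its partner, *Lin28b* was higher in all 3 and *Igf2bp1* was higher in 2, both on 0 to 2 counts a library. *Igf1r* and *Igf2r* were each higher in 2 pairs and lower in 1. The adjusted p-values depend on the pairing. Without the replicate block no gene of the 16208 was called and 904 had an unadjusted edgeR p under 0.05, with *Igf2bp2* at an adjusted p of 0.87, *Igf2bp3* at 0.87 and *Hmga2* at 0.93. Their log2 differences were then −0.50, −0.71 and −0.60, close to those with the block. Without replicate 2 their edgeR adjusted p were 0.28, 0.44 and 0.36, for log2 differences of −0.44, −0.54 and −0.53, so none of the 3 passed without that pair. Over all genes 1 was then called, against 179 with all pairs.

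**Figure D3:**
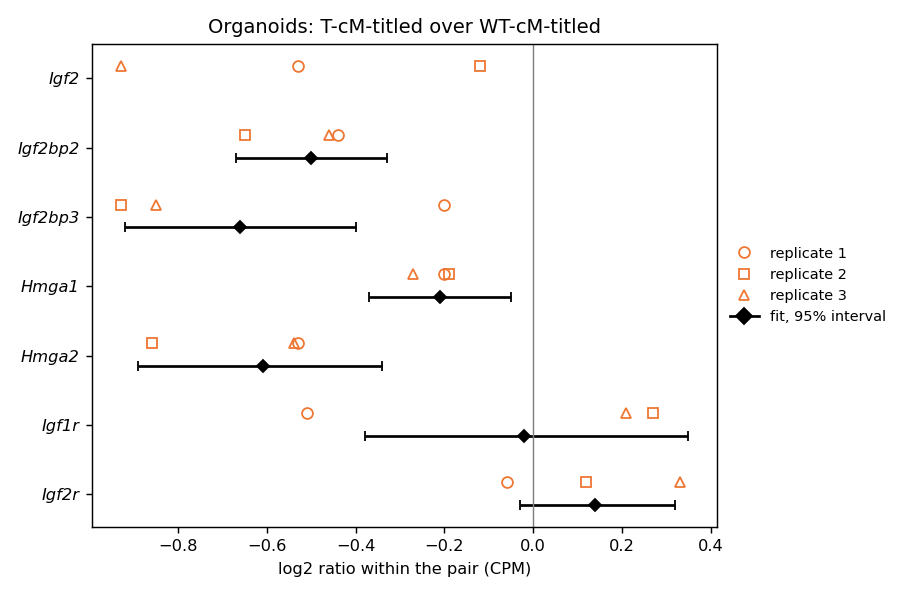
Organoid groups, T-cM-titled over WT-cM-titled, for 7 members. Open symbols give the log2 ratio of CPM within each replicate pair and black diamonds with bars the fitted log2 difference with its 95% interval (none for Igf2, which was not tested); all pairs of Igf2, Igf2bp2, Igf2bp3, Hmga1 and Hmga2 lie below 0, while Igf1r and Igf2r lie on both sides.

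In all 7 members with counts in every library the 3 tumoroids covered a wider fold range than the 6 organoid libraries did. The third tumoroid was the lowest of the 3 in *Igf2*, *H19*, *Igf2bp2*, *Igf2bp3* and *Hmga2*, and the second was the highest in *Igf2*, *H19*, *Igf2bp3*, *Hmga2*, *Igf1r* and *Igf2r*. The range from highest to lowest tumoroid was 24.6-fold for *Hmga2* and 83.9-fold for *Igf2bp3*, against 3.04-fold and 2.61-fold over the 6 organoid libraries. The third tumoroid also stood apart in markers of other tissues. The stomach marker list (9 genes) summed to 62.5 TPM there, of which 48.5 TPM was *Sox2*, against 15.7 and 12.1 TPM in the other tumoroids and 3.79 to 21.9 TPM in the organoids, where up to 20.6 TPM was *Tff1*. Stomach genes were not confined to that library. *Muc5ac* (5.35, 0.67 and 3.24 TPM) and *Muc6* (2.68, 6.62 and 0.11 TPM) were present in the 3 tumoroids and at 0 in every organoid library, and of the 8 stomach markers tested 4 were called higher in tumoroids and 1, *Tff1*, lower, beside 21% and 12.1% of all tested genes. All 4, *Muc5ac*, *Muc6*, *Sox2* and *Gif*, were at 0 TPM in every organoid library and so could be tested because they were high in tumoroids. *Tff1* was also called higher in the T-cM-titled than in the WT-cM-titled organoids (log2 difference 1.07, SE 0.33, edgeR adjusted p = 0.035), with overlapping values. By the methods of the study, tumours around the ampulla were left out so that stomach cells would not be carried along. In the third tumoroid the intestinal marker *Cdx2* was at 121 TPM, against 273 and 262 in the others. The leukocyte list (5 genes) summed to 11.9, 16.7 and 58.3 TPM in the tumoroids and to at most 2.17 TPM in the organoids, nearly all of it *Cd68*, with *Ptprc* at or under 0.14 TPM and *Cd3e* at 0 in every library. The endothelial list reached 3.06 TPM in the third tumoroid and stayed at or under 0.73 TPM elsewhere, and the nerve and glia list was between 1.03 and 6.83 TPM in all libraries. The part of these cells or states in the values of the members was not tested, and in bulk cultures fewer cells that express a gene and less RNA per cell cannot be told apart.

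Of the wider IGF pathway, a list of 25 further genes of which 16 were tested, 3 were called higher in tumoroids and none lower, against 21% and 12.1% of all genes, and the median log2 difference was 0.20 beside 0.165 over all genes. *Irs1* and *Pappa2* reached 1 TPM in tumoroids alone, so that these calls, like that of *H19*, rest on genes that were tested because they were high there. *Irs1*, an adaptor that carries the receptor signal inward, was at 0.225 to 0.550 CPM in the organoids and at 7.66, 21.7 and 28.2 CPM in the tumoroids (log2 difference 5.53, SE 0.41, edgeR adjusted p = 6.6e-06). *Stc2*, a secreted inhibitor of the PAPP-A proteases that free IGFs from their binding proteins, was at 4.82 to 12.3 CPM in the organoids and at 87.8, 175 and 32.2 CPM in the tumoroids (3.69, SE 0.44, edgeR adjusted p = 9.8e-05). *Pappa2*, one of those proteases, was at 0.902 to 1.59 CPM in the organoids and at 17.6, 4.28 and 9.24 CPM in the tumoroids (3.03, SE 0.39, edgeR adjusted p = 0.00015). The adaptors and kinases most used by the pathway moved less, with *Akt1* at 0.18 (edgeR adjusted p = 0.38) and *Insr* at −0.04 (edgeR adjusted p = 0.88), and *Igf1* was at most 0.02 TPM in any library. Between the organoid groups no gene of the list passed the adjusted p.

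Of the let-7 processing genes, 13 of the 16 found by symbol were tested, and 1 was called higher in tumoroids and none lower, beside 21% and 12.1% of all tested genes. This was *Zcchc11*, a uridylating enzyme that acts on let-7 precursors together with LIN28A, at 3.94 to 7.03 CPM in the organoids and 11.1, 18.3 and 53.7 CPM in the tumoroids (log2 difference 2.40, SE 0.42, edgeR adjusted p = 0.0011). The median of the list was 0.25 beside 0.165 over all genes. By the adjusted p alone 4 were higher in tumoroids, as were 29.6% of all tested genes, and 3 lower, as were 3370 of the 16208. The higher were *Zcchc11*, *Dis3l2*, *Drosha* (0.51, edgeR adjusted p = 0.026) and *Ago1* (0.71, edgeR adjusted p = 0.016). The lower were *Tarbp2* (−0.67, edgeR adjusted p = 0.0021), *Dicer1* (−0.41, edgeR adjusted p = 0.045) and *Ago2* (−0.71, edgeR adjusted p = 0.018). *Drosha*, *Tarbp2* and *Dicer1* act in cutting microRNA precursors, and *Ago1* and *Ago2* bind the mature microRNA. Each of these roles thus had genes on both sides. *Dis3l2*, the nuclease that degrades uridylated let-7 precursors, was lower in T-cM-titled organoids by the adjusted p alone (−0.41, edgeR adjusted p = 0.027) and higher in tumoroids than in organoids, also by the adjusted p alone (0.76, edgeR adjusted p = 0.0022), with no overlap.

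Of 18 further genes known as let-7 targets 16 were tested, and 5 were called higher in tumoroids and none lower, beside 21% and 12.1% of all tested genes, with a median log2 difference of 0.28 beside 0.165 over all genes. The count called lower was 1 with RLE size factors, with DESeq2 and without WT-cM-titled replicate 3, and 2 without the second tumoroid, and *Cdc25a*, a cell cycle phosphatase, just missed the fold threshold (−0.95, edgeR adjusted p = 0.00047). Those called higher were the cell cycle genes *Ccnd1* (3.57, SE 0.25, edgeR adjusted p = 5.6e-06) and *Cdk6* (2.87, SE 0.19, edgeR adjusted p = 3.9e-06), the transcription factors *Myc* (2.37, SE 0.26, edgeR adjusted p = 6.4e-05) and *Mycn* (1.70, SE 0.37, edgeR adjusted p = 0.0035), and *Thbs1*, a secreted matrix glycoprotein (5.94, SE 0.56, edgeR adjusted p = 2.6e-05). *Thbs1* was at 73.8, 76.3 and 435 CPM in the tumoroids, so the third was far above the others, and *Mycn* overlapped the organoids (7.66 CPM in the first tumoroid, up to 7.88 CPM in the organoids). *Ccnd1* and *Myc* are also known targets of the Wnt pathway. Between the organoid groups *Ccnd2*, a cyclin, passed the adjusted p on the lower side (−0.48, edgeR adjusted p = 0.00019) and none was called.

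Among 23 other imprinted genes 9 were tested, and 3 were called higher in tumoroids and 1 lower, beside 21% and 12.1% of all tested genes, with a median log2 difference of 0.14 beside 0.165 over all genes. *Plagl1* and *Slc38a4* reached 1 TPM in tumoroids alone and so could be tested because they were high there. *Plagl1*, a zinc-finger factor linked to the imprinted network, was at 0.507 to 1.09 CPM in the organoids and at 12, 17.4 and 15.3 CPM in the tumoroids (log2 difference 4.35, SE 0.26, edgeR adjusted p = 2.8e-06). *Slc38a4*, an amino acid transporter, had 0 counts in all 6 organoid libraries and 0.952, 0.892 and 1.17 CPM in the tumoroids, and *Airn* is given above. *Snrpn*, a splicing protein, was called lower (−1.34, SE 0.23, edgeR adjusted p = 0.00092). In the organoids *Cdkn1c*, a cell cycle inhibitor of the same chromosome 7 imprinted cluster as *Igf2*, was called, as 1.1% of all tested genes were. It was at 5.55, 12.3 and 11.8 CPM in the T-cM-titled and at 3.57, 2.61 and 5.22 CPM in the WT-cM-titled organoids, with no overlap (log2 difference 1.35, SE 0.20, edgeR adjusted p = 2.6e-05). This call was lost without replicate 2, without the replicate block and on log2(TPM + 1).

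Of 10 other oncofoetal genes 2 were tested, and they moved in opposite directions in tumoroids. *Afp*, alpha-fetoprotein, was at 25 to 46 CPM in the organoids and at 0.272, 2.42 and 0.103 CPM in the tumoroids (log2 difference −5.11, SE 0.81, edgeR adjusted p = 0.00061). *Tpbg*, the 5T4 oncofoetal antigen, was called higher (1.35, SE 0.41, edgeR adjusted p = 0.020), with the third tumoroid at 8.83 CPM and the others at 2.45 and 2.83 CPM, and the call was lost without the third tumoroid, with limma voom and against the WT-cM-titled organoids alone. The remaining 8, among them *Sall4*, *Gpc3* and *Cldn6*, stayed under 1 TPM in every library.

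**Figure D4:**
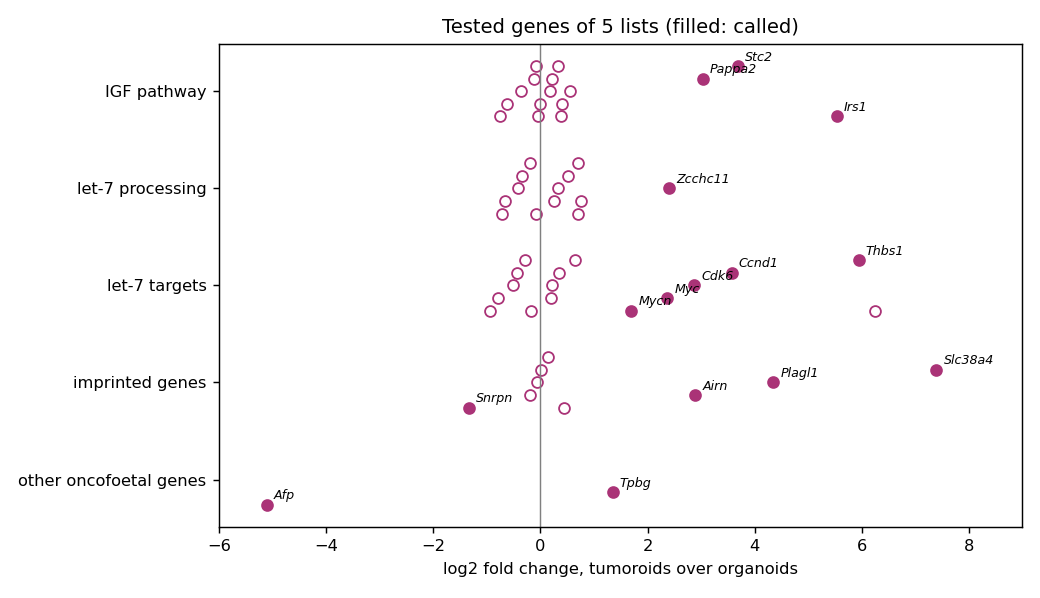
Fitted log2 difference of tumoroids over organoids for the tested genes of 5 lists, 1 point a gene, filled and named where called and open otherwise; the vertical position within a list has no meaning. Most genes lie near 0, 13 called genes lie to the right, and Snrpn and Afp lie to the left; the values of Slc38a4 and of the open point near 6 (Igdcc3) depend on the prior count, since both have 0 counts in the organoids.

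As a description of which genes followed the members most closely, the profile of 6 tested members over the 9 libraries was compared with that of 11716 genes. The measure was Pearson's r on log2 CPM (with a prior count of 2). Since 3 of the 9 libraries are tumoroids that differ in many genes, a high r is easily reached. *H19* was most like *Timp3* (r = 0.997), *Stk10* and *Bicc1*, *Igf2bp3* most like *Angptl8* (r = 0.994), *Igf2bp2* most like *Chrm3* (r = 0.992) and *Hmga2* most like *Osgepl1* (r = 0.981). *Igf2r* was most like *Akap13* (r = 0.989) and *Hmga1* most like *Chga* (r = 0.983), *Etfb* and *Ppif*.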

How the data were processed

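Polyadenylated RNA of 9 cultures (3 T-cM-titled and 3 WT-cM-titled organoid libraries, 3 tumoroid libraries) was sequenced by the authors with a strand-specific kit. The authors aligned paired-end reads with STAR (version 2.5.3a) to mm10 and counted genes of Gencode release 13, and deposited the raw counts with no normalisation. They also deposited TPM, which the authors scaled for gene length and library total. The counting tool, its strand setting and the gene length used are not given in the sources used here.

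Groups and replicate numbers were taken from titles. Organoid libraries of the same number deviated together (Pearson r over 16208 genes of 0.546, 0.338 and 0.547), and the number was a block in the organoid comparison, where the study's methods have it too. Tumoroids against the mean of both organoid groups was fitted over 9 libraries without a block. Organoid libraries of the same number thus counted as independent there, although they deviated together, and the adjusted p-values of that comparison do not allow for this. With a block 2 members were still called higher and 2 lower, but that block also ties tumoroids to organoids by number. Nothing says that the same animals gave tumoroids and organoids.

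Genes that reached 1 TPM in some library were tested in R 4.3.3 with edgeR 4.0.16 (TMM normalisation, quasi-likelihood F test in its legacy form). CPM are TMM-normalised. Standard errors were derived as the absolute log2 difference over the square root of F. Alternatives used DESeq2 1.42.0 and limma 3.58.1 (voom, or log2 of TPM with a pseudocount of 1). The scripts were tested on simulated data. Counting intervals are exact binomial at 95%.

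The members, gene lists, tests and the rule for naming genes were chosen with earlier results of these data known. Named were all members, from each list the genes called in organoids and up to 4 called in tumoroids with the smallest p, the 3 genes most like each member with a CPM of at least 5, and overlapping genes. The values given for *Akt1*, *Insr*, *Igf1*, *Dis3l2*, *Drosha*, *Ago1*, *Tarbp2*, *Dicer1*, *Ago2*, *Cdc25a* and *Ccnd2*, the genes *Mycn*, *Sall4*, *Gpc3*, *Cldn6* and *Igdcc3* and single markers were chosen after their values were seen. Some genes that this rule names are not reported here. Positions come from Gencode release 21 on the same build, microRNA sequences from RefSeq, and site sequences from the Gencode transcripts. p-values measure the spread between these cultures.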

Additional observations from a re-analysis of the deposited data

How the results depend on the processing

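Between the organoid groups, 109 genes were called higher in the T-cM-titled libraries and 70 lower. These became 63 and 30 with DESeq2, 68 and 36 with limma voom, 816 and 818 with no fold threshold (then 3 members lower), and 0 and 0 both with limma on log2(TPM + 1) and with no replicate block, where the pairing is left out. Leaving out a replicate gave 1 to 169 higher and 0 to 216 lower. On log2(TPM + 1), with the block, *Igf2bp2*, *Igf2bp3* and *Hmga2* were at −0.48, −0.54 and −0.48 (limma adjusted p = 0.28, 0.29 and 0.28). *Igf1r* without replicate 1 was at 0.25 (edgeR adjusted p = 0.45) and *H19* without replicate 2 at −0.54 (edgeR adjusted p = 0.98), both turned in sign from values near 0 or resting on 4 counts. Leaving out a replicate gave −0.54 to 2.41 for *H19* and −0.15 to 0.25 for *Igf1r*. No other tested member changed sign.

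For tumoroids, 3400 genes were called higher and 1963 lower. The lower count was 1143 with limma on log2(TPM + 1) and 3370 with no fold threshold. The higher calls were 63.4% of all calls, and 78.5% on log2(TPM + 1), where the median over all genes was 0.518 instead of 0.165; it was 0.11 with RLE size factors and 0.27 with upper-quartile factors. Of the members, 2 were called lower, but 1 on log2(TPM + 1) and 1 against the T-cM-titled organoids alone, *Igf2bp2* missing the fold threshold or the adjusted p. Leaving out a replicate gave 1 (without tumoroid 3) to 3 (without tumoroid 1, with *Hmga1*) called lower and 2 to 3 (without tumoroid 1, with *Igf2r*) called higher. With a replicate block *Hmga1* was at −0.66 (edgeR adjusted p = 0.014); *Hmga1* was under 0.05 in 6 of 20 alternatives. The cause of these changes was not tested. Depth limits *Igf2bp1* and *Lin28b*, which had at most 6 counts a library.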
